A study of Mus musculus with 4 samples.

Results

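The 39 genes described here encode the machinery that copies DNA in S phase, the factors that supply its building blocks and the regulators that start it. They form a list of known DNA replication and S-phase genes that was drawn up with earlier results of these arrays in view, so their counts against all named genes are descriptions. Each was represented by the probe set that names this gene alone and has the highest mean over the 4 arrays. All 39 were found among 19938 genes so named on the array, measured by 41 of 35556 probe sets. Gene expression was measured in mice that overexpress noggin or BMP4 under the K14 promoter, which is active in basal keratinocytes, the dividing layer of epidermis. BMP4 is a secreted bone morphogenetic protein, and noggin is an extracellular antagonist that binds BMPs. Epidermis of glabrous hindpaw skin, which carries no hair, was captured by laser as 8 to 10 strips per animal. Each array carries a pool from 3 animals, and 6 animals of either line were used, which makes 2 arrays per group. Age, sex and strain are not given in the sources used here, non-transgenic epidermis was not analysed here, and both groups carry a transgene, so every difference is between the 2 transgenic lines.

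Replication starts at origins bound by the origin recognition complex, where Cdc6 and Cdt1 load the MCM2-7 ring, the inactive form of the replicative helicase, during G1. Kinases then activate the helicase with Cdc45 and the GINS complex, polymerase alpha-primase lays down primers, and polymerases delta and epsilon extend them on the PCNA clamp. In epidermis this work is done mainly by basal keratinocytes, which stop dividing when they move up to form the spinous, granular and cornified layers. Many of these genes are switched on together at the passage from G1 to S by E2F transcription factors, whereas most mitotic genes are switched on later, in G2 and mitosis.

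The replication genes had lower means in noggin than in BMP4 epidermis in most cases, by small amounts. Of the 39, 32 had a lower mean in noggin and 7 a higher one, against a lower mean in 52.1% of all named genes. The median difference was -0.12 on the log2 scale, or 1.08-fold lower in noggin, and single differences ran from -0.46 for Rrm1 to 0.25 for Rfc3, while the median over all named genes was -0.0064. In 17 of the 39 the groups did not overlap and noggin was the lower one, against 17.9% of all named genes. Noggin was the higher of non-overlapping groups in 0 of the 39, against 15.7% of named genes. For 7 of the 17, the groups were separated by at least 0.1 log2 units, against 5.89% of named genes, and in the other 10 the gap was smaller. The 7 were Mcm10, Chaf1a, Orc6, Rfc5, Pola2, Mcm6 and Lig1. In whole epidermis, fewer cells in S phase and less RNA per cell cannot be told apart.

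No gene passed the test. Limma, fitted across all 35556 probe sets with Benjamini-Hochberg adjustment over all of them, made calls for 0% of them at a threshold of 0.05. It therefore called 0 of the 39 genes, whose adjusted p lay between 0.848 and 1.0. At an unadjusted p below 0.05 the same fit gave 1994 probe sets. Among the 39 genes it gave 3 that were lower in noggin, Mcm10, Chaf1a and Orc6, against 2.1% of named genes, and 0 that were higher, against 2.18%. The 95% interval of a gene's difference reached 0.34 log2 units to either side at the median of the 39, so most of the differences are smaller than what 2 arrays per group can resolve. The plot of all differences with their intervals shows 3 intervals that leave out 0.

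**Figure D1:**
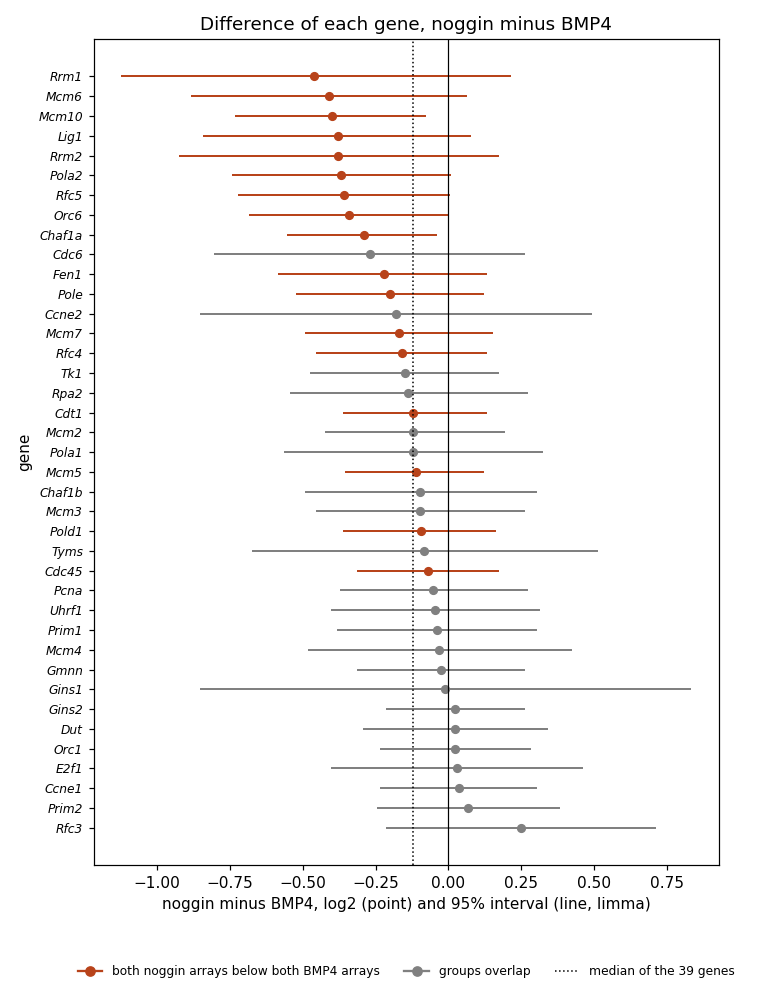
The difference in log2 value between noggin and BMP4 (x axis) for each of the 39 genes (y axis, in order of the difference), as a point with its 95% interval from limma, 2 arrays per group. The 17 genes in orange have non-overlapping groups with noggin lower, the groups of the grey genes overlap, and the dotted line marks the median of -0.12.

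The quality of the arrays set limits on these values. Array medians lay between 6.04 and 6.06, and r between arrays over all named genes ran from 0.985 to 0.993, with the 3 lowest values in the pairs that hold BMP4 replicate 1. All 39 genes lay above the lower quartile of every array, their lowest value being 5.38, but detection above background is unknown. Krt14, the basal keratin, had log2 values of 12.25 and 12.25 in the noggin arrays and 12.42 and 12.36 in the BMP4 arrays. This shows keratinocyte RNA in every array but not the purity of the strips, and markers of other cells are given below. The replicates are pools of different animals, and p-values measure only the spread between pools.

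Promoter windows of these genes were searched for the letters of the E2F motif, since E2F factors are known to bind many replication gene promoters. RefSeq windows (GRCm38.p6) that run from 250 bases before to 50 bases after the transcription start were given for 32 of the 39 genes, 37 windows in all. Gins1, Gins2, Ccne2, Gmnn, Prim2, Pole and Mcm4 were not among them. The windows below belong to Mcm6, Lig1 and Rfc3, the genes with the smallest limma p among those with an E2F match, and to Pcna, the sliding clamp, which has none. Each is printed from 5′ to 3′ on the strand of its gene, in lower case, with capitals marking every match to TTTCCCGC, TTTCGCGC, TTTGCCGC or TTTGGCGC on either strand. The windows lie at chr1:128359656-128359955 (minus strand) for Mcm6, chr7:13278576-13278875 (plus strand) for Lig1, chr5:151651159-151651458 (minus strand) for Rfc3 and chr2:132253131-132253430 (minus strand) for Pcna.
Mcm6: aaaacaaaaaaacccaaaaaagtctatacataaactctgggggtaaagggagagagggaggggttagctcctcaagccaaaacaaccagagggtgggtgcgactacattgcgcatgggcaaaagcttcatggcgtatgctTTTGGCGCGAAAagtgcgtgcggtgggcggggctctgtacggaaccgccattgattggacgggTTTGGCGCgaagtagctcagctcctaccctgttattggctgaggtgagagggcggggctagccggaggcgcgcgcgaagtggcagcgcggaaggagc
Lig1: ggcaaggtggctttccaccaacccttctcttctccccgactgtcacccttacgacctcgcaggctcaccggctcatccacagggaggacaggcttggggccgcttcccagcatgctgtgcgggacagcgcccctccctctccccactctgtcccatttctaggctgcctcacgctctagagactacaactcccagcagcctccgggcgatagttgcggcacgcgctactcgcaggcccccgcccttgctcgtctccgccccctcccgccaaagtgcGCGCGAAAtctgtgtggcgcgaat
Rfc3: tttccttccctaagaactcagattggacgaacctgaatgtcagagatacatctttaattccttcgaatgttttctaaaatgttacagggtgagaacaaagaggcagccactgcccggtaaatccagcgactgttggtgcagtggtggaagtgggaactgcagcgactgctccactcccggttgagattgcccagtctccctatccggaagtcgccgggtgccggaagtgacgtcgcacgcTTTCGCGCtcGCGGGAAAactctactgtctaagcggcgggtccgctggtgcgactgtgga
Pcna: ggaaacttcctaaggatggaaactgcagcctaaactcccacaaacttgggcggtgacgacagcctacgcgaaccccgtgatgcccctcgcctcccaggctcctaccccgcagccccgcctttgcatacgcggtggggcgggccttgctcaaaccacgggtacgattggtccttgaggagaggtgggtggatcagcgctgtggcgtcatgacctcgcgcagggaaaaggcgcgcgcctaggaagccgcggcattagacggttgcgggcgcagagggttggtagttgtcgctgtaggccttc

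The Mcm6 window holds 3 matches. They begin 110, 106 and 47 bases before the start, and the first 2 overlap on opposite strands. The Rfc3 window holds 2 on opposite strands, one beginning 10 bases before the start and the other at the start itself. Lig1 has 3 RefSeq windows, and the one shown holds a single match, 26 bases past the start. In the Pcna window the letters searched do not occur, although it holds a CCAAT box and 2 GC boxes. Mcm6 had its lowest value in noggin and its highest in BMP4. Rfc3 had the higher mean in noggin, with overlapping groups and a 95% interval of -0.21 to 0.71. A link between these letters and the differences was not tested.

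Across all windows, an E2F match was found in 12 of 37 windows of these genes, or 32.4%. The share was 2.85% of 21262 windows of protein-coding genes and 2.26% of all 32851 windows. The 12 genes were Cdc6, Cdt1, Lig1, Mcm3, Mcm5, Mcm6, Mcm7, Orc1, Pola1, Pold1, Rfc3 and Uhrf1. Among the MCM2-7 subunits with a window, Mcm3, Mcm5, Mcm6 and Mcm7 held matches and Mcm2 held none. The CHR element, TTTGAA or TTCGAA, which is known from promoters of mitotic genes, was found in 5 of the 37 windows of replication genes, or 13.5%. The share was 17.6% of windows of protein-coding genes and 19.2% of all windows. In the windows of mitosis and spindle genes an E2F match was found in 8.77% and a CHR match in 75.4%. CHR matches also outnumber E2F matches in protein-coding and all windows, and the CHR element has 6 letters against 8. The CCAAT box, bound by NF-Y, occurred in 54.1% of the replication windows and 70.2% of the mitotic ones, against 38.2% of protein-coding and 37.4% of all windows. The GC box, CCGCCC, which Sp factors bind, can overlap an E2F match. It occurred in 73.0% of the replication windows and 77.2% of the mitotic ones, against 46.2% of protein-coding and 35.7% of all windows. These matches are letters in a window and not binding sites. The 12 genes with an E2F match had a median difference of -0.11, with 6 of them lower in both noggin arrays. The 20 with a window and no match had a median of -0.14, with 10. Over all named genes, 17.9% were lower in both noggin arrays.

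**Figure D2:**
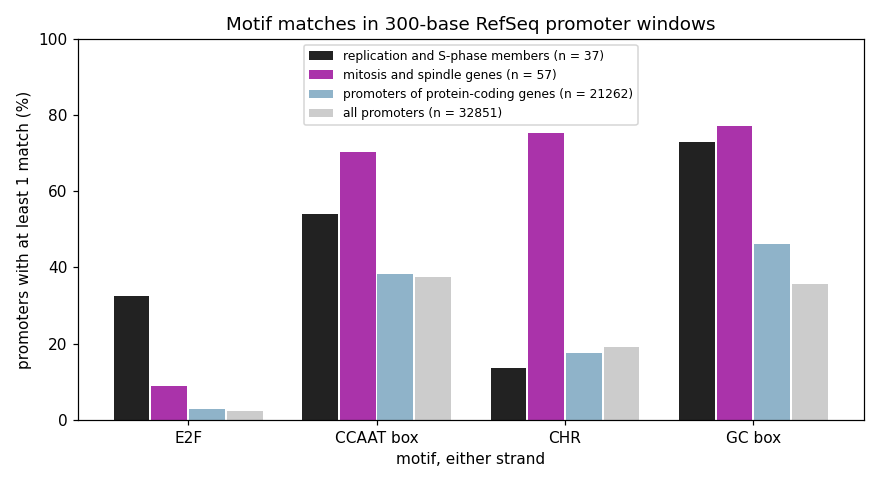
Share of promoter windows (y axis, percent) that hold at least 1 match to each motif on either strand (x axis), for the replication genes, mitosis and spindle genes, protein-coding genes and all windows. The E2F share is 32.4% for the replication genes and 8.77% for the mitotic genes, while the CHR share is 13.5% and 75.4%.

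Licensing factors, which prepare origins in G1, had 10 of 11 means lower in noggin. Their median difference was -0.12. Noggin was the lower of non-overlapping groups in 5 of them, against 17.9% of all named genes. The largest difference was in Mcm6, a subunit of the MCM2-7 ring, with log2 values of 8.06 and 8.46 in noggin replicates 1 and 2 and 8.74 and 8.59 in BMP4 replicates 1 and 2. Both noggin arrays were lower, the difference was -0.41 (95% interval -0.88 to 0.062, limma adjusted p = 0.899), and noggin replicate 1 was the lowest array. Without that array it was -0.21. Orc6, the smallest subunit of the origin recognition complex, was 9.0 and 8.93 in noggin and 9.43 and 9.18 in BMP4. Its noggin arrays were close to each other and both lower, at a difference of -0.34 (adjusted p = 0.874 in limma), or -0.22 without BMP4 replicate 1.

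The 6 subunits of the MCM2-7 ring, which enter it in equal numbers, were all lower on average in noggin, from -0.41 for Mcm6 to -0.032 for Mcm4, with a median of -0.12. Mcm5 was 7.81 and 7.76 in noggin and 7.91 and 7.88 in BMP4. Mcm7 was 6.42 and 6.64 in noggin and 6.66 and 6.74 in BMP4. The groups did not overlap in Mcm5, Mcm6 and Mcm7, although the gap in Mcm7 was only 0.019 and its difference went from -0.17 to -0.058 without noggin replicate 1. Mcm2 was 7.68 and 7.72 in noggin and 7.71 and 7.92 in BMP4, so that the groups met. Mcm3, at 6.53, 6.81, 6.77 and 6.76 in the order of noggin and then BMP4 arrays, and Mcm4, at 7.30, 7.66, 7.61 and 7.42, had noggin replicate 2 as their highest array and noggin replicate 1 as their lowest. In 5 of the 6 subunits noggin replicate 1 was the lowest of the 4 arrays.

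The loaders and their inhibitor showed small differences. Cdt1, which loads the ring, was 6.22 and 6.27 in noggin and 6.33 and 6.40 in BMP4, a difference of -0.12 with no overlap, or -0.078 without BMP4 replicate 2. Cdc6, the ATPase that acts with it, was 6.05 and 6.53 in noggin and 6.49 and 6.63 in BMP4, and its difference of -0.27 shrank to -0.036 without noggin replicate 1. Gmnn, which encodes geminin, the inhibitor that keeps Cdt1 from loading a second ring, differed by -0.026 (95% interval -0.31 to 0.26). Orc1, the ATPase subunit of the origin complex, differed by 0.023 (95% interval -0.23 to 0.28) and was the only licensing gene with a higher mean in noggin.

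Among the 4 factors that turn the loaded ring into an active helicase, Mcm10 had the smallest adjusted p of all 39 genes, 0.848 in limma. Mcm10, a scaffold needed for the helicase to start unwinding, was 5.46 and 5.38 in noggin and 5.93 and 5.71 in BMP4. All 4 values lay below the array medians of 6.04 to 6.06. The value of 5.38 was the lowest of all 39 genes, and detection above background is unknown. Both noggin arrays lay 0.25 or more below both BMP4 arrays, and the difference was -0.40 (95% interval -0.73 to -0.079), or 1.32-fold lower in noggin. Cdc45, the helicase cofactor, was 7.50 and 7.56 in noggin and 7.59 and 7.61 in BMP4, without overlap but with a difference of only -0.07. The GINS subunits differed little in their means: Gins2 by 0.022 (95% interval -0.21 to 0.26) and Gins1 by -0.013 (95% interval -0.85 to 0.83). Gins1 was 6.10 and 6.84 in the noggin arrays and 6.68 and 6.28 in the BMP4 arrays, the widest replicate spread of the 39 genes in noggin, with an SD of 0.52.

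**Figure D3:**
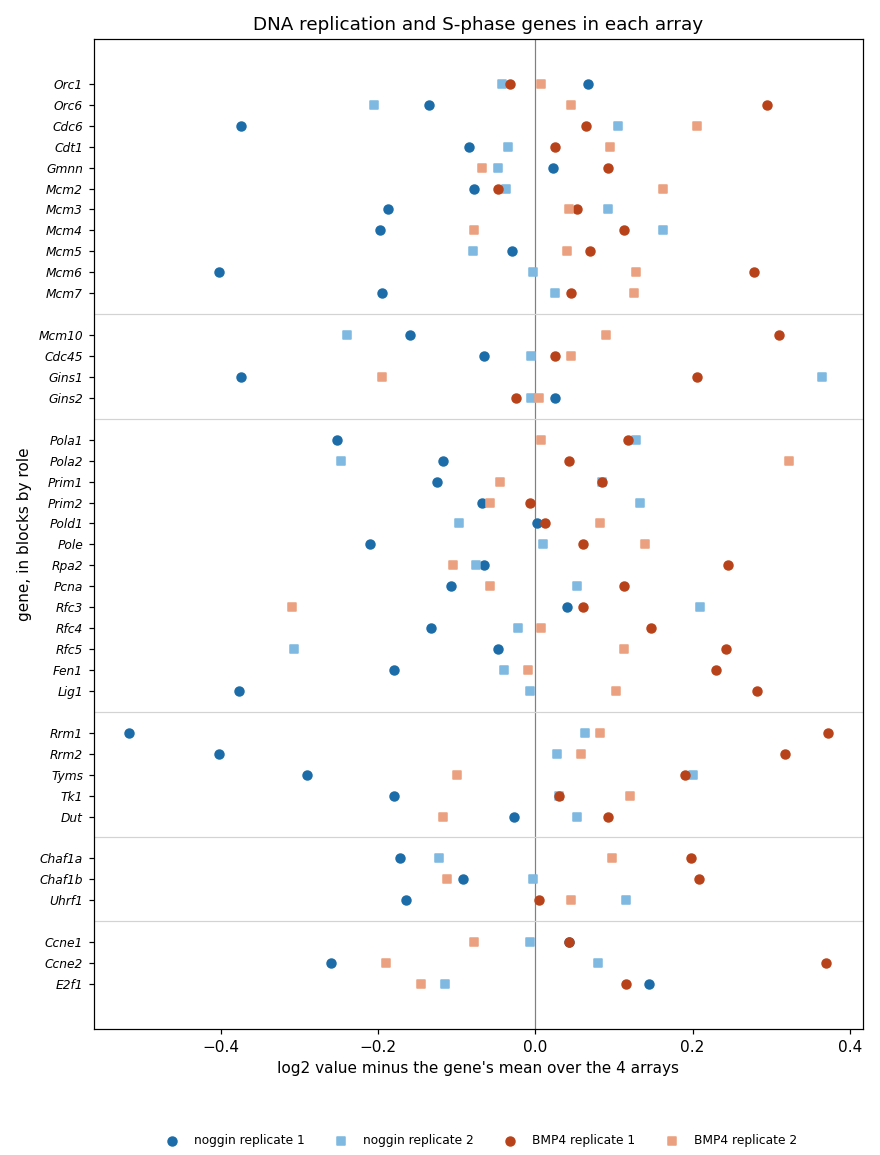
Log2 value of each of the 39 genes in each array relative to the gene's mean over the 4 arrays (x axis), with genes on the y axis in blocks by role: licensing, helicase activation, synthesis, nucleotide supply, chromatin, and G1/S regulators. Dark blue circles (noggin replicate 1) are the lowest array in 24 genes and dark orange circles (BMP4 replicate 1) the highest in 17.

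Genes of DNA synthesis itself, from primase to ligase, had 11 of 13 means lower in noggin and a median difference of -0.14. Noggin was the lower of non-overlapping groups in 7, against 17.9% of all named genes. Pola2, the regulatory subunit of polymerase alpha, was 5.96 and 5.83 in noggin and 6.12 and 6.40 in BMP4. Both noggin arrays were lower, at a difference of -0.37 (95% interval -0.74 to 0.007, limma adjusted p = 0.874), or -0.23 without BMP4 replicate 2. The other 3 subunits of polymerase alpha-primase did not follow it beyond their spread. Pola1, the catalytic subunit, differed by -0.12 (95% interval -0.56 to 0.32), the primase subunit Prim1 by -0.039 (95% interval -0.38 to 0.30) and its partner Prim2 by 0.068 (95% interval -0.24 to 0.38). In all 3 of these noggin replicate 2 was the highest array.

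The catalytic subunits of the replicative polymerases were lower in both noggin arrays by narrow margins. Pole, which copies the leading strand, was 6.30 and 6.52 in noggin and 6.57 and 6.65 in BMP4, a difference of -0.20, or -0.092 without noggin replicate 1. Pold1, which copies the lagging strand, was 6.97 and 6.87 in noggin and 6.98 and 7.05 in BMP4, where the gap between the groups was 0.0093. Rpa2, a subunit of the complex that coats single-stranded DNA, was 6.64 and 6.63 in noggin and 6.95 and 6.60 in BMP4, so its difference of -0.14 rested on BMP4 replicate 1 and was 0.035 without it.

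The clamp and its loader differed among themselves. Pcna, the ring that holds polymerases on DNA, was 11.24 and 11.40 in noggin and 11.46 and 11.29 in BMP4, a difference of -0.052 (95% interval -0.37 to 0.27). A second probe set for Pcna gave 11.25, 11.39, 11.45 and 11.29 in the same arrays, and RefSeq lists the pseudogenes Pcna-ps1 and Pcna-ps2, so the share of signal from the gene itself is uncertain. Rfc5, a loader subunit, was 8.0 and 7.74 in noggin and 8.29 and 8.16 in BMP4, lower in both noggin arrays at -0.36 (adjusted p = 0.874 in limma), or -0.23 without noggin replicate 2. Rfc4 was 7.36 and 7.47 in noggin and 7.64 and 7.50 in BMP4, also without overlap, and its difference of -0.16 was -0.085 without BMP4 replicate 1 and -0.10 without noggin replicate 1. Rfc3, a subunit of the same loader, was 8.50 and 8.67 in noggin and 8.52 and 8.15 in BMP4. It had the largest positive difference of the 39 genes, 0.25 (95% interval -0.21 to 0.71), which was 0.062 without BMP4 replicate 2.

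Both genes for the trimming and joining of Okazaki fragments were lower in both noggin arrays. Lig1, the ligase that seals them, was 7.67 and 8.04 in noggin and 8.33 and 8.15 in BMP4, a difference of -0.38, or 1.31-fold. Without noggin replicate 1 it was -0.20. Fen1, the nuclease that trims their flaps, was 6.36 and 6.50 in noggin and 6.77 and 6.53 in BMP4. Its difference of -0.22 came with a gap of 0.032 between the groups, and without BMP4 replicate 1 it was -0.10.

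Nucleotide supply held the largest difference of the 39 genes, and of its 5 genes 4 had a lower mean in noggin. In 2 the groups did not overlap, with noggin lower, against 17.9% of all named genes. Rrm1, the large subunit of ribonucleotide reductase, which makes deoxynucleotides, was 7.73 and 8.31 in noggin and 8.62 and 8.33 in BMP4. The difference was -0.46, or 1.37-fold lower in noggin, with a 95% interval from -1.12 to 0.21. Its partner Rrm2, the subunit whose level follows S phase, was 7.10 and 7.53 in noggin and 7.82 and 7.56 in BMP4, a difference of -0.38. In both genes noggin replicate 1 was far lower than the rest, BMP4 replicate 1 was the highest, and the gap between the groups, set by their replicate 2 arrays, was 0.02 for Rrm1 and 0.027 for Rrm2. Without noggin replicate 1 both differences were -0.16.

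The enzymes of thymidine nucleotides were split. Tyms, thymidylate synthase, was 7.73 and 8.22 in noggin and 8.21 and 7.92 in BMP4, and Dut, the dUTPase that keeps uracil out of DNA, was 7.49 and 7.57 against 7.61 and 7.40. Neither difference, -0.083 for Tyms and 0.023 for Dut, exceeded its spread. Tk1, thymidine kinase of the salvage pathway, was 8.17 and 8.38 in noggin and 8.38 and 8.47 in BMP4 by its brighter probe set, a difference of -0.15 with overlap. Its other probe set gave 7.61 and 7.69 in noggin and 8.07 and 7.94 in BMP4, lower in both noggin arrays at -0.36 (adjusted p = 0.848 in limma). The value of Tk1 therefore depended on the probe set, with sizes more than 1.5 times apart.

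Of the 3 genes that rebuild chromatin behind the fork, Chaf1a, the large subunit of chromatin assembly factor 1, had the tightest pattern. It was 7.59 and 7.64 in noggin and 7.96 and 7.86 in BMP4, a difference of -0.29 (95% interval -0.55 to -0.041, limma adjusted p = 0.867). Leaving out any 1 array kept it between -0.34 and -0.25. Chaf1b, the middle subunit of the same complex, was 6.25 and 6.34 in noggin and 6.55 and 6.23 in BMP4, with overlap and a difference of -0.098. Uhrf1, which directs the copying of DNA methylation to the new strand, differed by -0.046 (95% interval -0.40 to 0.31).

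Of the 3 regulators of S-phase entry, 1 had a lower mean in noggin and 2 a higher one, with a median difference of 0.029 that turned to -0.011 without noggin replicate 1 and -0.10 without BMP4 replicate 2. Ccne1 and Ccne2 encode the E cyclins that activate Cdk2 at the start of S phase, and E2f1 encodes a transcription factor of replication genes. Ccne1 differed by 0.036 (95% interval -0.23 to 0.30) and E2f1 by 0.029 (95% interval -0.40 to 0.46). Ccne2 was 7.40 and 7.74 in noggin and 8.03 and 7.47 in BMP4, and its difference of -0.18 was 0.096 without BMP4 replicate 1. The groups overlapped in all 3 genes.

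The differences were carried mainly by the replicate 1 arrays. Noggin replicate 1 was the lowest of the 4 arrays in 24 of the 39 genes, against 21.2% of all named genes, and BMP4 replicate 1 was the highest in 17, against 24.2%. Between these 2 arrays 35 of the 39 genes were lower in noggin, with a median difference of -0.24. Between noggin replicate 2 and BMP4 replicate 2 the count was 22 of 39 and the median -0.027. The other pairs of arrays gave 30 genes and -0.17 for noggin replicate 1 against BMP4 replicate 2, and 26 genes and -0.051 for noggin replicate 2 against BMP4 replicate 1. The 2 noggin pools differed from each other by a median of 0.14 and so did the 2 BMP4 pools, against -0.12 between the groups. Without noggin replicate 1 the median difference was -0.058, with 26 of 39 genes lower. Without BMP4 replicate 1 it was -0.085 with 23 of 39, and without noggin replicate 2 it was -0.21. In 11 of the 39 genes the difference between groups was larger than the gap between replicates in both groups, against 21.9% of named genes.

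**Figure D4:**
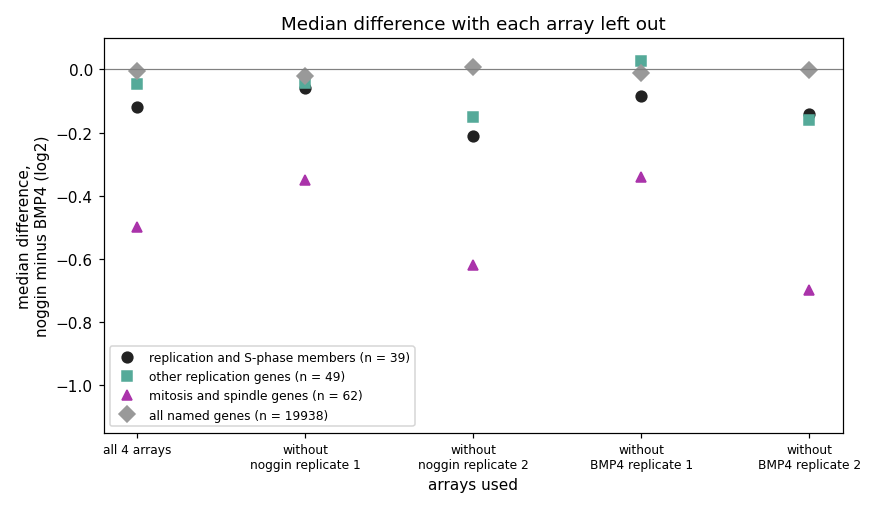
Median difference between noggin and BMP4 (y axis, log2) with all 4 arrays and with each array left out (x axis), for the 39 replication and S-phase genes, 49 other replication genes, 62 mitosis and spindle genes and all named genes. The replication genes lie between -0.21 and -0.058 and the mitotic genes between -0.70 and -0.34.

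Further genes of the replication machinery were listed from general knowledge, with earlier results of these arrays known, so their counts are descriptions. Of 49 measured, 35 had lower noggin means. Their median of -0.046 turned to 0.026 without BMP4 replicate 1. Noggin was the lower of non-overlapping groups in 15, against 17.9% of all named genes, and the higher in 1, against 15.7%. Limma called 0 of them. Against 2.1% of named genes lower at an unadjusted p below 0.05, it gave 4 here, all lower in noggin. These were Asf1b, a histone chaperone that works with chromatin assembly factor 1, at -0.74, Fbxo5, an inhibitor of the anaphase-promoting complex, at -0.63, the checkpoint adaptor Clspn at -0.48 and Rnaseh2c, a subunit of ribonuclease H2, at -0.25. Asf1b was 6.41 and 6.32 in noggin and 7.27 and 6.95 in BMP4, lower in both noggin arrays.

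Histone genes, whose transcripts accumulate in S phase to package the new DNA, had 21 of 28 means lower in noggin, at a median of -0.17. Groups did not overlap with noggin lower in 16, against 17.9% of all named genes, and with noggin higher in 3, against 15.7%. The linker histone H1f5 was 7.43 and 7.66 in noggin and 8.28 and 8.11 in BMP4, a difference of -0.65, and the H4 gene H4c3 was 6.81 and 7.10 against 7.57 and 7.58. Limma called 0 of the 28 and gave 6 lower and 1 higher at an unadjusted p below 0.05, against 2.1% and 2.18% of named genes. Histone genes are close copies of one another, so probes may bind several of them and these counts may repeat one signal. The 28 were matched out of 61 listed.

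In 16 of 23 genes of G1/S control the noggin mean was lower, at a median of -0.042. Both noggin arrays were lower in 7, against 17.9% of all named genes, and higher in 1, against 15.7%. Ccna2, the cyclin of S phase and mitosis, differed by -0.70, and E2f8, a repressor of E2F targets, was -0.37. Of 18 recombination and Fanconi genes, which repair broken forks, 13 had a lower mean, with a median of -0.11. Without BMP4 replicate 1 the median was -0.00059 and without noggin replicate 1 it was -0.01, with 9 of 18 lower in each case. The 4 that were lower in both noggin arrays make 22.2%, near the 17.9% of all named genes. Of 6 cyclin-dependent kinase inhibitor genes, 4 had lower noggin means, at a median of -0.026 that turned to 0.038 without noggin replicate 2. One of them, Cdkn1b, which encodes the inhibitor p27, was 8.18 and 8.57 in noggin and 9.69 and 9.46 in BMP4 by its brighter probe set. That is a difference of -1.20, or 2.3-fold lower in noggin (adjusted p = 0.701 in limma), larger in size than that of any of the 39 replication genes. Its other probe set gave 8.45 and 8.52 in noggin and 8.68 and 8.66 in BMP4, a difference of -0.18, so the size depended on the probe set. Limma called 0 genes in each of these lists. At an unadjusted p below 0.05 it gave 2, 0 and 1, all lower in noggin, against 2.1% of named genes.

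**Figure D5:**
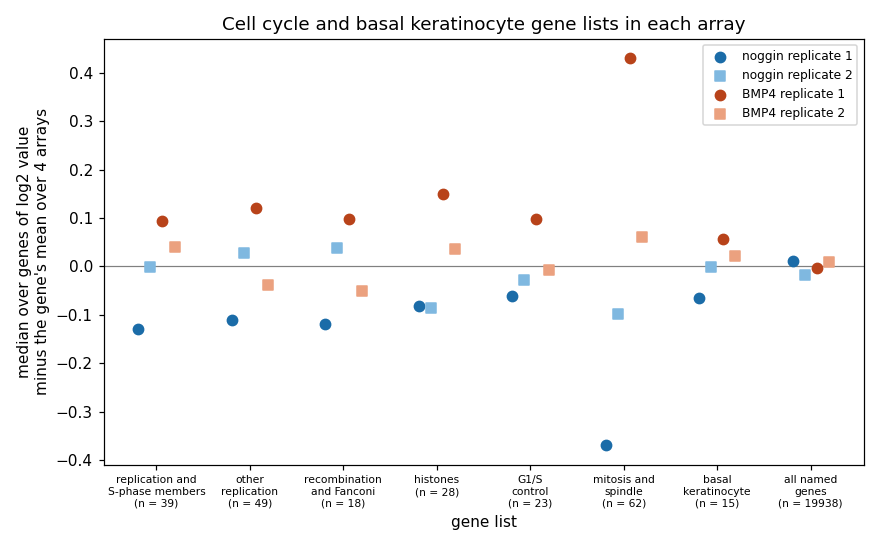
Median over the genes of each list (x axis) of the log2 value relative to the gene's mean over the 4 arrays (y axis), shown for each array. For the replication and S-phase genes the medians are -0.13 and -0.00094 in the noggin arrays and 0.093 and 0.039 in the BMP4 arrays, and for mitosis and spindle genes -0.37, -0.098, 0.43 and 0.06.

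Mitosis and spindle genes, which act after replication is complete, differed by more than the replication genes in the same arrays. Noggin had the lower mean in 62 of 62, at a median of -0.50. Groups did not overlap in 45 of the 62, with noggin lower, against 17 of the 39 replication genes and 17.9% of all named genes. A gap of at least 0.1 separated the groups in 39 of the 62 mitotic genes and 7 of the 39 replication genes, against 5.89% of named genes. Foxm1, a transcription factor of mitotic genes, differed by -0.93, more than the size of any of the 39 replication genes. The array order was alike in both lists, with noggin replicate 1 the lowest in 54 of the 62 mitotic genes and BMP4 replicate 1 the highest in 60. Limma called 0 of the 62 and gave 26 lower at an unadjusted p below 0.05, against 2.1% of named genes. The difference between the lists was not tested, because genes measured on the same arrays are not replicates.

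Markers of the cells in the strips were read in the same arrays. Basal keratinocyte markers, from the layer in which these genes are mainly used, were lower on average in noggin in 8 of 15, at a median of -0.10. Both noggin arrays were lower for 6 of these markers, against 17.9% of all named genes, and higher for 1, against 15.7%. The mean log2 level of the basal markers was 9.05 and 9.07 in noggin and 9.12 and 9.07 in BMP4. Suprabasal markers had a higher mean in noggin for 12 of 16, with a median of 0.051 and mean levels of 11.85 and 11.84 in noggin and 11.6 and 11.87 in BMP4. Skeletal muscle markers were highest in noggin replicate 1 in 15 of 15 genes and lowest in BMP4 replicate 1 in 13, the arrays in which the replication genes were most often lowest and highest. Their mean log2 level was 8.65 and 7.76 in noggin and 7.07 and 8.06 in BMP4. Langerhans cell and myeloid markers had a higher mean in noggin for 14 of 15, at a median of 0.67. Their mean levels were 7.49 and 7.63 in noggin and 6.62 and 7.41 in BMP4. Both noggin arrays were higher in 9, against 15.7% of all named genes, and lower in 1, H2-Eb1 at -0.95, against 17.9%. BMP4 replicate 1 was the lowest array in 14 of 15 of these markers, against 25.9% of all named genes. Fibroblast and endothelial markers were lowest in that array in 10 of 11, at 7.77 and 7.72 in noggin and 7.42 and 7.83 in BMP4. T cell markers, 9 of 9 with a higher mean in noggin, were 6.27 and 6.37 in noggin and 5.96 and 6.15 in BMP4. Hair shaft and root sheath markers had a lower mean in noggin for 24 of 25, at a median difference of -0.16. Their mean levels, 6.09 and 5.91 in noggin and 6.84 and 6.42 in BMP4, lie further apart because a few genes differed most, such as the hair keratin Krt84 at -4.75. Sebaceous gland markers had a higher mean for 9 of 10, at 7.47 and 7.18 in noggin and 6.80 and 7.12 in BMP4. Sweat gland markers were 6.96 and 6.65 in noggin and 6.77 and 6.60 in BMP4, and melanocyte and Merkel cell markers 5.49 and 5.40 against 5.38 and 5.38. The part of these cells in the differences of the replication genes was not tested.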

How the data were processed

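RNA of laser-captured epidermis was amplified by the NuGEN pico protocol and hybridised to 4 arrays, per the labels' protocols. Values were deposited on the log2 scale, 1 per probe set, and the authors made them with Affymetrix Expression Console and RMA, per the submitters' processing notes, with versions and settings not given in the sources used here. RMA equalises the arrays' distributions and compresses changes of dim probe sets. For arrays, their number limits the precision.

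Of 35556 probe sets, 21789 have 1 gene symbol in the platform annotation, 1621 several, and 12146 are unnamed here. The comparison used R 4.3.3 and limma 3.58.1, a two-sided moderated test with no covariate and with 2 residual and 2.08 prior degrees of freedom, and Benjamini-Hochberg adjustment over all probe sets and a threshold of 0.05. The code was tested on simulated data. Errors are limma intervals or SDs of 2 arrays. With 2 arrays a group, the smallest two-sided p of an exact permutation test is 0.333. Lists other than the 39 genes were matched by symbol, then by Entrez identifier through RefSeq synonyms (GRCm38.p6), and up to 4 genes of smallest p were named from each. The members and lists were chosen with earlier results of these data known. Motifs and figures used Python 3.11.15 and matplotlib 3.10.9.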

Additional observations from a re-analysis of the deposited data

How the results depend on the processing

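The 39 genes had 0 calls in limma, and all probe sets 0, under the replicate number as a block (replicate block), a trend or robust prior, leaving out dim probe sets, median centring, cyclic loess, further quantile normalization, a threshold of 0.1 and leaving out each array, and the 39 genes also when a gene's probe sets were averaged. The smallest adjusted p of any of them was 0.695. The replicate numbers do not pair the arrays: arrays that share a number deviated from their groups with a correlation of -0.12. With the replicate block the count of genes with a lower mean stayed 32 and the median -0.12, which the block cannot change. A crossed pairing, chosen after seeing the data, also gave 0 calls.

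The median difference lay between -0.21 and -0.058 on leaving out 1 array, the count with a lower mean between 23 and 35, and the count with no overlap between 18 and 30, where fewer arrays make separation easier. Cyclic loess gave 31 genes with a lower mean and 16 without overlap. The share of all named genes without overlap is not given for the leave-one-out or loess settings. These counts can therefore not be read as high or low. Of the 39 genes, 35 moved by over 1.5 times for at least 1 array left out. The 17 genes with both noggin arrays below both BMP4 arrays keep their direction by definition. The share of all named genes that keep theirs is not given here. Whichever array was left out, 22 of the 39 kept their direction, 20 of them lower in noggin. The other 17 changed sign, with ranges of -0.031 to 0.076 for Orc1, -0.11 to 0.054 for Gmnn, -0.24 to 0.041 for Mcm3, -0.21 to 0.15 for Mcm4, -0.38 to 0.36 for Gins1, -0.31 to 0.063 for Pola1, -0.15 to 0.069 for Prim1, -0.035 to 0.17 for Prim2, -0.31 to 0.035 for Rpa2, -0.14 to 0.033 for Pcna, -0.33 to 0.16 for Tyms, -0.081 to 0.13 for Dut, -0.26 to 0.061 for Chaf1b, -0.19 to 0.093 for Uhrf1, -0.021 to 0.093 for Ccne1, -0.46 to 0.096 for Ccne2 and -0.10 to 0.16 for E2f1. Gins1 was 0.0027 under cyclic loess, and the cause was not tested.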
